A study of Mus musculus with 8 samples.

Results

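The 9 genes described here encode parts of the complement system: the C1q chains C1qa, C1qb and C1qc, the classical-pathway components C2 and C4b, the central component C3, the alternative-pathway protease Cfb, the inhibitor Serping1 and the C3a receptor C3ar1. They were chosen by name, and all 9 were found among the 18473 genes detected in the kept cells of the 8 Drop-seq libraries. In the naïve libraries 8 of the 9 were detected in any cell, Cfb being absent, and in each tumour-bearing library all 9 were.

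Complement is a cascade of plasma proteins that tags surfaces for clearance. In the classical pathway C1q, a hexamer of trimers of the 3 chains, binds antibody or other ligands and activates the proteases C1r and C1s, which cleave C4 and C2 to build an enzyme that cleaves C3. The alternative pathway builds its own C3-cleaving enzyme from C3 and factor B. In the brain, microglia are known as the main source of C1q, and C1q and C3 are known for marking synapses that microglia remove.

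Single cells came from the brains of C57BL/6 mice, C57BL/6N by the study's methods, that were wild-type (WT) or homozygous for a knock-out (KO) of Acod1, also named Irg1, the mitochondrial enzyme that makes itaconate in activated macrophages. The knock-out allele carries an insertion cassette and is present in every cell of the KO mice, the implanted tumour cells excepted. There were 2 naïve libraries, WT and KO, each labelled with 2 mice, and 6 libraries of GL261 tumours, a syngeneic mouse glioma line with the wild-type gene, with 1 mouse for each genotype at the early, intermediate and late stage as judged by tumour volume. By the study's methods the WT early and KO intermediate mice were female and the other tumour-bearing mice male, so sex and genotype differed together at 2 of the 3 stages. A library is the sample below, and a p-value measures the spread between libraries, which also holds technical differences.

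The kept data held 5698 cells, from 454 to 1000 per library, with library medians of 2597.5 to 5637.5 unique molecular identifiers (UMIs) per cell. Of 7991 distinct barcodes, 2 occurred in more than 1 library. The cells were clustered without any complement gene, named from marker lists, and summed per class and library. Levels are given in CPM, the UMIs of a gene per 1000000 UMIs of that class in that library, for sums of at least 5 cells. The tumour-bearing libraries held 3391 tumour-like cells, 477 macrophage-like cells (the tumour-associated macrophages called TAM II), 175 microglia-like cells (TAM I), 224 oligodendrocyte-like, 185 lymphocyte-like, 73 astrocyte-like and 39 mural- or fibroblast-like cells. The naïve libraries held 198 microglia-like, 216 astrocyte-like and 144 oligodendrocyte-like cells but only 2 macrophage-like cells. Acod1 itself was counted in the macrophage-like and microglia-like cells of all 6 tumour-bearing libraries, with 140, 5 and 4 UMIs in WT early, intermediate and late and 27, 6 and 33 in KO. In CPM these were 160.0, 46.6 and 19.7 in WT and 51.1, 10.8 and 58.1 in KO, so KO late lay above WT intermediate and WT late and the values do not follow the genotype labels at every stage. Where the counted 3' tags lie relative to the altered exons was not tested, and the genotypes below are those of the labels.

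On the genome the genes lie in a few groups. In GENCODE M21 on GRCm38 the C1q chains follow each other on the minus strand of chromosome 4 in the order C1qb (136880129 to 136886187), C1qc (136889804 to 136893065) and C1qa (136895917 to 136898803), with 3616 and 2851 bases between neighbours. C4b (34728380 to 34743882), Cfb (34856374 to 34862518) and C2 (34862604 to 34898265) lie on chromosome 17, all on the minus strand, and only 85 bases part Cfb from C2. C4a, a near-identical copy of C4b, starts 65209 bases beyond it, so reads of the pair could be split in counting and the C4b values are uncertain to that extent. C4a itself received 35 UMIs over all tumour-like cells. C3 lies at 57203970 to 57228136 on chromosome 17, Serping1 at 84765387 to 84775444 on chromosome 2 and C3ar1 at 122847138 to 122856161 on chromosome 6, also on the minus strand.

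RefSeq promoter windows on GRCm38.p6, from 250 bases before to 50 bases after the start, were matched for 4 of the 9 genes, C1qb, C1qc, C3 and C3ar1. The windows of the neighbouring chain genes C1qb and C1qc are shown because both chains were high in every myeloid class. They are written 5' to 3' on the minus strand of chr4:136886151-136886450 and chr4:136892865-136893164, and capitals mark a match to GAGGAAGT, the purine-rich letters that PU.1 (Spi1), the myeloid transcription factor, is known to bind, here on the opposite strand.
C1qb: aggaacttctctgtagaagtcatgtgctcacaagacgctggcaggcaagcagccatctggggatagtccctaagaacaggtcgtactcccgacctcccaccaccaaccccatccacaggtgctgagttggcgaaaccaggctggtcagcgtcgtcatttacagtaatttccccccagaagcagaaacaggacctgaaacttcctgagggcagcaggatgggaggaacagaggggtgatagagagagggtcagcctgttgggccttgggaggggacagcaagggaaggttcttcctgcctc
C1qc: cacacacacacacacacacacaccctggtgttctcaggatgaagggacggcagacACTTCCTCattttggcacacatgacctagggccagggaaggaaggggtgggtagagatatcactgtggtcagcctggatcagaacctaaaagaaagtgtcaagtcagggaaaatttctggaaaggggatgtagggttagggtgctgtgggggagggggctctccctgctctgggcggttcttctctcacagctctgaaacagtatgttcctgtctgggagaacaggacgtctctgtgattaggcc
The match in C1qc begins at base 56 of the window, and C1qb, C3 and C3ar1 held none on either strand. GAGGAAGT was present on either strand in 3.20% of the 32851 promoter windows. The interferon-type pattern of GAAA, any 2 bases and GAAA again occurred in 3.44% of all windows and the STAT-type letters TTCNNNGAA in 8.30%, and neither occurred in any of the 4 windows matched. These are matches of letters only.

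The 3 chains of C1q marked microglia-like cells most strongly, in naïve and tumour-bearing brain alike. In the WT and KO naïve libraries C1qa was at 3348 and 4189 CPM in microglia-like cells. In the tumour-bearing libraries it was at 6033 and 5733 CPM at the early stage (WT, then KO), 4155 and 6699.7 at the intermediate stage and 5735 and 3858 at the late stage. The KO late and WT intermediate values lay within the naïve range, so the groups overlapped.

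C1qb, the second chain, stood at 4288 and 5324 CPM in naïve microglia-like cells and at 6762, 7159, 6520.5, 7199, 6474 and 5705 CPM in TAM I, in the order WT early, KO early, WT intermediate, KO intermediate, WT late and KO late. All 6 values lay above both naïve ones. C1qc was at 3799.7 and 4856 CPM in the naïve libraries and at 5415, 6368, 6289.7, 6322, 6181 and 4642 in TAM I in the same order, with only KO late inside the naïve range. By edgeR's quasi-likelihood test the differences missed the threshold, with log2 fold changes of 0.54 ± 0.32 (SE, adjusted p = 0.263) for C1qa, 0.48 ± 0.28 (0.255) for C1qb and 0.44 ± 0.28 (0.292) for C1qc. A rise of C1q from naïve microglia-like cells to TAM I was therefore not shown beyond the spread between these libraries.

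**Figure D1:**
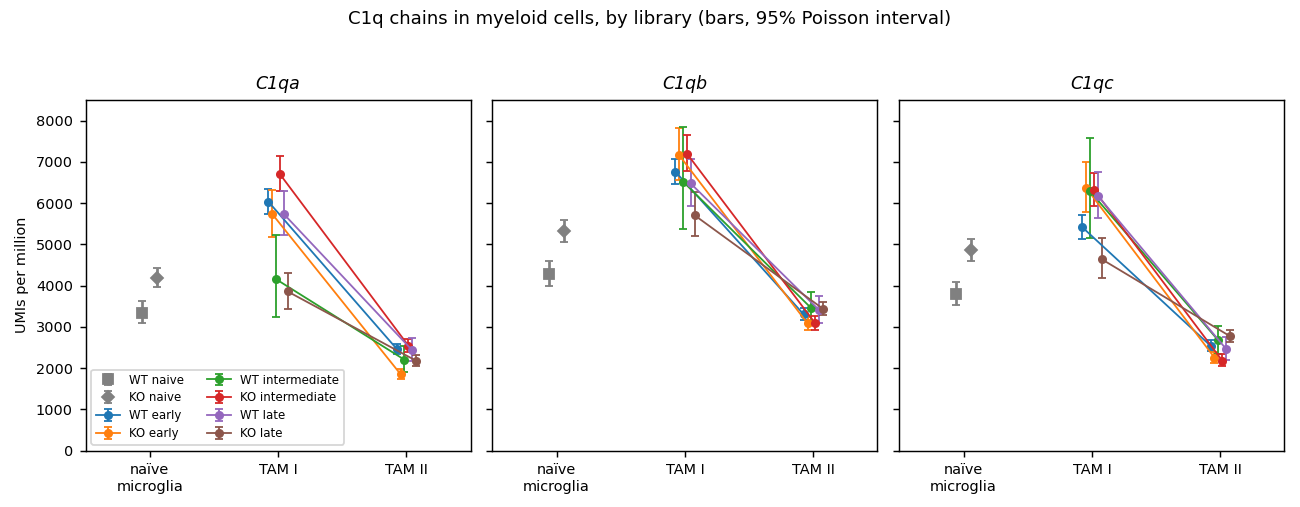
C1qa, C1qb and C1qc in CPM for naïve microglia-like cells, TAM I and TAM II, with 1 point per library, lines joining TAM I and TAM II of 1 library and bars giving the 95% Poisson interval of counting. TAM II sat below TAM I of the same library for each chain, between 1853 and 2548 CPM for C1qa.

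TAM II carried less C1q than TAM I from the same brains. C1qa was at 2466, 1853, 2204, 2548, 2435 and 2181 CPM in TAM II, in the library order given above, and C1qb at 3303, 3084, 3450.1, 3087, 3408 and 3439.7. C1qc stood at 2540.3, 2255, 2671, 2185, 2467 and 2775. For each chain TAM II was lower in 6 of 6 libraries. With the library as a block, the log2 fold change of TAM II against TAM I was -1.28 ± 0.16 for C1qa (edgeR, adjusted p = 1.36e-05), -1.07 ± 0.15 for C1qb (3.45e-05) and -1.30 ± 0.16 for C1qc (8.96e-06). In this comparison 4 of the 5 members tested passed the threshold, 3 lower and 1 higher, beside 29.9% of all 2501 genes tested.

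The mean hid a wide spread within TAM II. After each cell was thinned to 1500 UMIs, at least 1 C1qa UMI was found in 99.0% of naïve microglia-like cells, 99.4% of TAM I and 69.6% of TAM II (95% exact binomial interval 65.3 to 73.7; 74.2% unthinned). In lymphocyte-like cells of the tumour-bearing libraries, which are not known to make C1q, the share was 3.80%, and in tumour-like cells 2.42%. In naïve oligodendrocyte-like and astrocyte-like cells it was 9.72% and 7.48%. The source of the counts in these classes was not tested. The summed level of the 3 chains per cell had a median of 12695 CPM in naïve microglia-like cells, 16616 in TAM I and 6584 in TAM II, where the quartiles ran from 1203 to 11117.

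Low C1q counts in the other classes moved with other myeloid genes. In tumour-like cells C1qb was at 18.0, 31.6, 3.27, 11.5, 40.6 and 164 CPM in the library order given above. A list of 10 myeloid genes, among them Tyrobp and Csf1r, summed to 95.2, 141, 23.0, 49.0, 174 and 733 CPM in the same cells, with all 10 detected in each library, so both were highest in KO late and lowest in WT intermediate. In oligodendrocyte-like cells C1qa stood at 136 and 135 CPM in the naïve libraries and between 0 and 52.0 in the tumour-bearing ones, beside myeloid sums of 617 and 709 CPM naïve and 10.8 to 216 tumour-bearing. What part these counts have in the C1q of non-myeloid classes was not tested.

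C2, the protease that joins C4b in the classical C3-cleaving enzyme, was mostly a transcript of the tumour-like cells. They held 96.5% of its UMIs in the tumour-bearing libraries, against 83.5% of all UMIs. Its level in them was 80.0, 20.0 and 17.0 CPM in WT early, intermediate and late and 96.4, 94.98 and 103 CPM in KO, from 236, 159, 100, 351, 454 and 410 UMIs in the same order. All KO values lay above all WT values. In mural- or fibroblast-like cells C2 ran from 53.4 to 115 CPM in the 4 tumour-bearing libraries with enough cells, and in the naïve ones it was 47.2 CPM, from 1 UMI, and 0. In microglia-like cells C2 was at 0 in both naïve libraries and between 0 and 50.6 CPM in TAM I.

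C4b, the classical-pathway component that C1s cleaves, was spread over tumour and host cells and its level differed between naïve and tumour-bearing brain in 2 host classes. In microglia-like cells it was at 10.4 and 17.5 CPM in the naïve libraries. In TAM I it was at 311 and 367 CPM early, 231 and 466 intermediate and 63.7 and 228 late (WT, then KO), the WT intermediate sum holding 5 cells. Every tumour-bearing library lay above both naïve ones, WT late least. The log2 fold change was 4.33 ± 0.63 (edgeR, adjusted p = 0.00013). In that comparison 2 of the 6 members tested passed, both higher, beside 17.1% of all 3144 genes tested.

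Oligodendrocyte-like cells showed the same direction. Their C4b was at 22.7 and 40.4 CPM in the naïve libraries, and in WT early, KO early, KO intermediate, WT late and KO late it was at 527, 579.5, 499.6, 415 and 422 CPM. WT intermediate stood apart at 43.0 CPM, from 4 UMIs, just above the naïve values. The log2 fold change was 3.74 ± 0.62 (edgeR, adjusted p = 0.00543), and C4b was the single member of 3 tested that passed, beside 2.28% of all 2674 genes. The call was lost without 1 library: without the KO naïve library the adjusted p was 0.0644. In the same class C1qa was lower in tumour-bearing libraries by a log2 value of -2.52 ± 0.66, which missed the threshold (edgeR, adjusted p = 0.0577). C1qc was below the count filter, and edgeR without that filter called it lower (-1.82 ± 0.46, adjusted p = 0.00745). In astrocyte-like cells that fit called C1qc lower (-3.53 ± 0.66, 7.29e-05), but not C1qa (0.179) or C1qb (0.0605). The part of myeloid RNA in these values was not tested.

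In astrocyte-like cells C4b was at 43.5 and 36.3 CPM in the naïve libraries and at 147, 221, 106, 229 and 125 CPM in WT early, KO early, KO intermediate, WT late and KO late. The groups did not overlap, but C4b was below the count filter there. Fitted without that filter, its log2 fold change was 1.57 ± 0.55 (edgeR, adjusted p = 0.291). Tumour-like cells had 187, 75.2 and 71.2 CPM in WT early, intermediate and late and 192, 234 and 199.98 CPM in KO. They held 84.6% of the C4b UMIs of the tumour-bearing libraries, close to their 83.5% of all UMIs. Oligodendrocyte precursor-like cells, found only in tumour-bearing libraries, had 203, 157, 0, 218, 137 and 228 CPM in the library order given above, from 5 to 24 cells each. TAM II was lower, at 51.3, 45.9, 11.1, 46.6, 16.1 and 67.4 CPM.

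**Figure D2:**
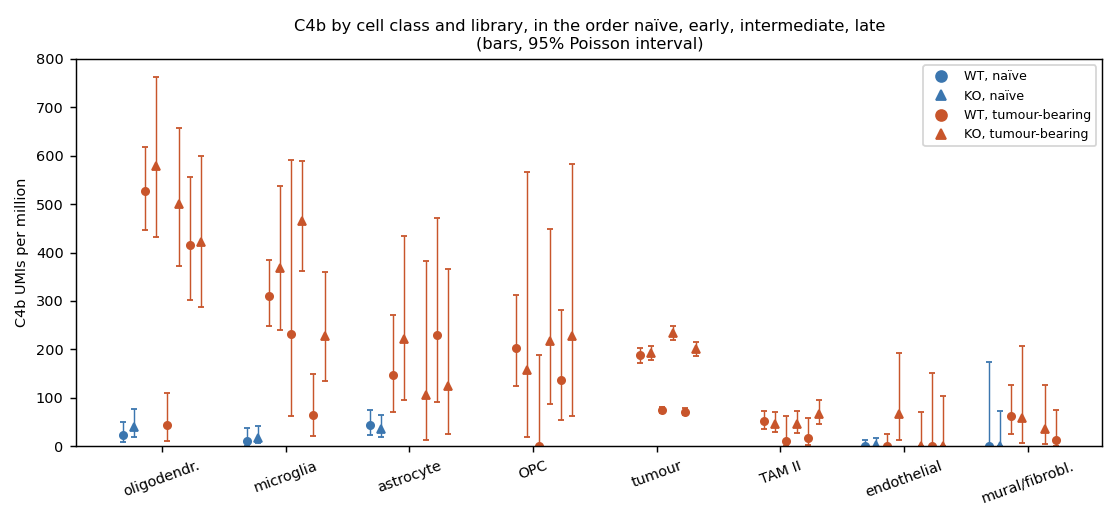
C4b in CPM by cell class, with 1 point per library, naïve and tumour-bearing side by side, circles for WT and triangles for KO, and bars giving the 95% Poisson interval. Oligodendrocyte-like cells ran from 415 to 579.5 CPM in 5 of the tumour-bearing libraries, with WT intermediate at 43.0.

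Genes that mark the tumour-like cells were counted in host classes beside C4b. A list of 8 of them summed to 7.57 and 26.9 CPM in naïve oligodendrocyte-like cells and to between 52.0 and 656 in tumour-bearing ones, and the library with 656, WT intermediate, was the one with the lowest C4b. Their part in C4b was not tested. Except in that library, C4b was higher in oligodendrocyte-like cells than in tumour-like cells of the same library. Thinned to 1500 UMIs, 1.52% of naïve microglia-like cells and 29.7% of TAM I (95% exact binomial interval 23.1 to 37.1) had a C4b UMI. The naïve and tumour-bearing shares were 5.56% and 30.8% in oligodendrocyte-like cells and 4.67% and 22.2% in astrocyte-like cells. In lymphocyte-like cells of the tumour-bearing libraries the share was 4.35%.

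C3, the component on which all pathways converge, was found mainly in TAM II, with 72.7% of its UMIs in tumour-bearing libraries. TAM I held 11.9% and tumour-like cells 11.2%. These classes held 6.21%, 1.90% and 83.5% of all UMIs, and pooled C3 was at 216, 116 and 2.47 CPM in them. Its level in TAM II was 316, 33.4 and 16.1 CPM in WT early, intermediate and late and 144, 309 and 166 CPM in KO. In TAM I it was at 167, 0 and 76.5 CPM in WT and 14.1, 135 and 63.2 in KO. It was 0 in both naïve microglia-like sums. With 3 counts in all naïve cells of the class taken as the floor, pooled C3 was 18.5-fold higher in TAM I. The counting error of its 77 UMIs in TAM I does not enter this ratio. With single tumour-bearing libraries left out, the ratio ran from 12.97-fold (without WT early) to 20.45-fold (without KO early). The edgeR test called the difference (adjusted p = 0.00196), with 5 of 6 libraries above naïve, but lost it when either naïve library was left out (0.0650 without KO naïve and 0.0609 without WT naïve).

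Within tumours C3 was higher in TAM II than in TAM I in 5 of 6 libraries, by a log2 fold change of 0.96 ± 0.33 (edgeR, adjusted p = 0.0385). DESeq2 did not call it (0.123), nor did edgeR without the library block (0.329), without KO early (0.0998) or without KO late (0.0871). Without WT early or without KO intermediate, C3 was no longer among the genes tested, here or in TAM I against naïve. In the naïve libraries C3 was detected in ciliated ependymal-like cells, at 14.2 CPM in WT and 95.1 CPM in KO. Pooled over libraries it was at 41.0 CPM naïve, from 13 UMIs, and 166 CPM tumour-bearing, from 11 UMIs in 14 cells.

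Cfb, the alternative-pathway protease, was counted mainly in TAM II, which held 82.3% of its UMIs in tumour-bearing libraries. Its level there was 155, 33.4 and 24.1 CPM in WT early, intermediate and late and 112, 169 and 112 CPM in KO. WT intermediate and WT late were the lowest for Cfb as they were for C3. In TAM I it was at 22.2, 0 and 25.5 CPM in WT and 0, 74.2 and 25.3 in KO, and it was absent from naïve microglia-like cells. With sums of at least 10 cells, Cfb was higher in TAM II than in TAM I by a log2 value of 1.95 (edgeR, adjusted p = 0.000816) and C4b lower by -2.69 (3.30e-07), beside 26.5% of all 3674 genes called in that fit.

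Several members came above 0 in some TAM I libraries, from 0 in the naïve microglia-like cells, but lay below the count filter. Against the floor of 3 counts, pooled Cfb was 5.05-fold, C2 3.61-fold and Serping1 3.37-fold higher, from 21, 15 and 14 UMIs. Neither the counting error of these UMIs nor the spread between libraries enters these ratios. The ratio for Cfb was 3.09-fold without KO intermediate and that for Serping1 1.91-fold without KO late. Without the filter edgeR called all of them (adjusted p = 0.00639, 0.0293 and 0.0340), beside 3.38% of all 16170 genes. Sums of counts this low rest on few molecules. C2 had no UMI in TAM I of WT intermediate or WT late, and Cfb none in KO early or WT intermediate. Serping1 had none in KO intermediate, WT intermediate or WT late. Pooled C2 and Serping1 were at 58.6 and 34.9 CPM in tumour-like cells, against 22.6 and 21.1 in TAM I. The part of tumour-cell RNA in the TAM I values was not tested.

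Other complement genes, of which 25 were detected, moved in both directions between naïve microglia-like cells and TAM I. C5ar1, the C5a receptor, rose by a log2 value of 1.48 ± 0.49 (edgeR, adjusted p = 0.0448), from 51.9 and 38.4 CPM to between 37.9 and 217. Clu, which restrains the terminal complex and is abundant in astrocytes, fell by 2.17 ± 0.51 (edgeR, adjusted p = 0.00704). Pooled Clu was also lower in tumour-bearing libraries in endothelial-like cells, at 172 CPM naïve and 6.42 CPM tumour-bearing, and in oligodendrocyte-like cells, at 259 and 95.6 CPM. The astrocyte marker list summed to 1241 and 1345 CPM in naïve microglia-like cells and to between 57.7 and 291 in TAM I, and its part in the Clu values was not tested. Against TAM I, TAM II was higher for Cfp, the alternative-pathway stabiliser properdin, by 5.63 ± 0.38 (edgeR, adjusted p = 1.94e-08), with 338 to 557 CPM in TAM II and 0 to 25.5 in TAM I. Itgam, a subunit of complement receptor 3, was lower there by -1.29 ± 0.16 (edgeR, adjusted p = 1.05e-05).

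Serping1, the C1 inhibitor, which blocks C1r and C1s, was highest in mural- or fibroblast-like cells. They were at 519.5 and 565 CPM in WT and KO naïve libraries and at 759.9, 977, 965 and 361 CPM in WT early, KO early, KO intermediate and WT late, the tumour-bearing libraries with enough cells. The groups overlapped, and the log2 fold change of 0.48 ± 0.56 missed the threshold (edgeR, adjusted p = 0.699), in a class where edgeR called 0.0% of 1517 genes, 214 of them at an unadjusted p under 0.05, and DESeq2 called 36. The class carried 769 to 10000 CPM of the tumour-marker list in tumour-bearing libraries, against 283 and 175 in naïve ones, and the part of these counts in Serping1 was not tested. In tumour-like cells Serping1 was at 52.2, 10.2 and 1.53 CPM in WT early, intermediate and late and at 56.9, 52.5 and 79.8 in KO.

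C3ar1, the receptor for the C3 fragment C3a, had its highest levels in the myeloid classes. In naïve microglia-like cells it was at 244 and 220.1 CPM. TAM I ran at 263, 254, 231, 263, 472 and 101 CPM in the library order given above and TAM II at 222, 210.0, 356, 174, 362 and 215. The ranges overlapped in both comparisons, with log2 fold changes of 0.20 ± 0.36 (edgeR, adjusted p = 0.746) for tumour-bearing against naïve and -0.20 ± 0.21 (0.528) for TAM II against TAM I. After thinning, a UMI was seen in 26.8% of naïve microglia-like cells, 28.6% of TAM I and 22.2% of TAM II.

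**Figure D3:**
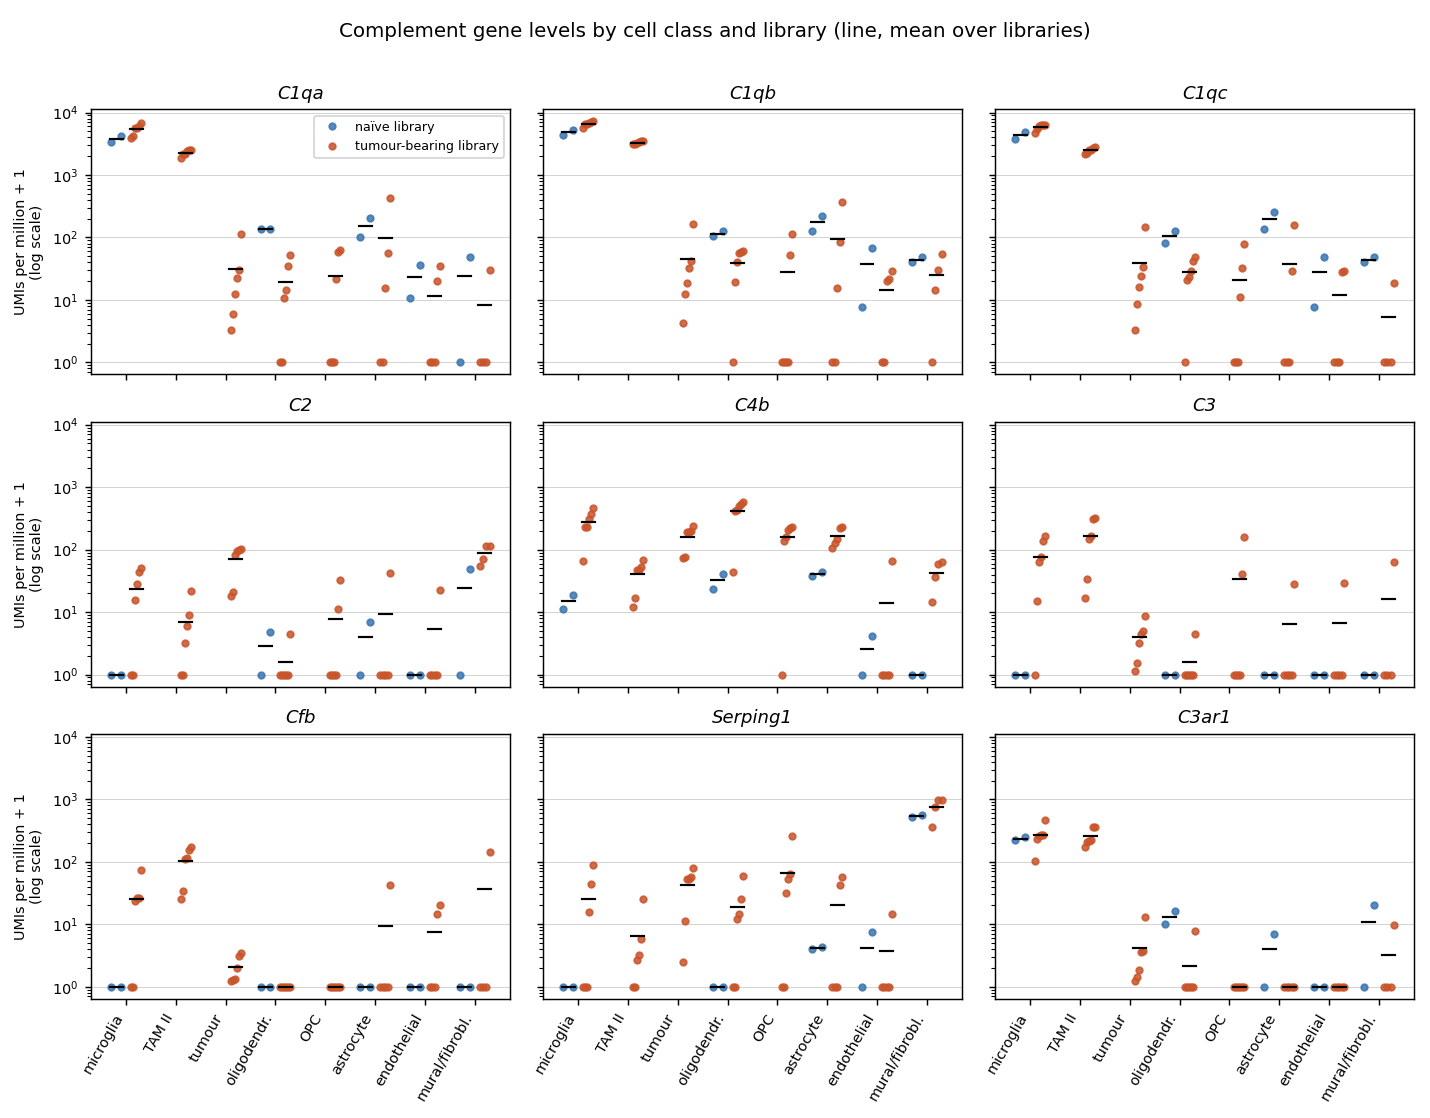
The 9 members as CPM + 1 by cell class on a log axis, with 1 point per library and a line at the mean over libraries. C1q stands highest in the microglia-like class, C3 and Cfb in TAM II, and Serping1 in mural- or fibroblast-like cells.

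The genotypes were then compared over the tumour-bearing libraries, with stage as a block. No member was called by edgeR in any of the 3 classes fitted. In TAM I 5 members were tested, 0 with an unadjusted p under 0.05 and 0 by DESeq2, in a fit that called 0.0% of 1438 genes. In TAM II 7 were tested, 0 with an unadjusted p under 0.05, and DESeq2 called 0 of the 5 it gave an adjusted p for, with 0.0678% of 5897 genes called. In tumour-like cells 8 were tested, 7 with an unadjusted p under 0.05, in a fit that called 0.0% of 13693 genes, 881 of them (6.43%) at an unadjusted p under 0.05.

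In tumour-like cells all 8 members tested were higher in KO, with a median log2 fold change of 1.60, beside 50% of all genes and a median close to 0. C2 was higher by 1.75 ± 0.43 (edgeR, adjusted p = 0.473), C4b by 1.11 ± 0.31 (0.575) and Serping1 by 2.40 ± 0.86 (0.685), each in 3 of 3 stages. DESeq2 called 5 of the 6 members it tested, C2 (1.77, adjusted p = 0.00147), C4b (1.11, 0.0394) and the C1q chains (0.0220, 0.00102 and 0.00621), beside 0.6% of all 11834 genes. The 10-gene myeloid list in the same cells was also higher in KO at each stage, as the sums above show, and its part in these values was not tested. The C1q chains are 3 of the 8 members and 3 of the 5 DESeq2 calls. C3 and C3ar1 averaged only 1.34 and 1.84 CPM in WT and 4.66 and 4.44 in KO. The 8 members therefore do not count as 8 separate results. C1s1 and C1ra, which encode the proteases that C1q activates, were not called and stood between 20.2 and 53.9 and between 10.4 and 42.0 CPM in tumour-like cells.

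In this comparison 2 libraries stood apart. WT intermediate and WT late were lowest for C2, C4b and Serping1 in tumour-like cells and for C3 and Cfb in TAM II, while WT early lay close to or above the lowest KO value for each. C3ar1 in TAM II went the other way, with its highest levels, 356 and 362 CPM, in those 2 libraries. When WT early was left out, edgeR called C3 (3.33, adjusted p = 0.00185) and Cfb (2.34, 0.0460) in TAM II, beside 0.936% of all 6194 genes. It then also called C2 (2.46, 0.0151), C4b (1.60, 0.0287), C1qb (1.97, 0.0373) and C1qc (2.05, 0.0398) in tumour-like cells, beside 0.418% of all 14340 genes. Leaving out KO early instead, which also removes the early pair from the comparison, gave nearly the same values. Either way only the intermediate and late libraries enter the genotype difference, so the fits are not separate checks. Their WT side is the 2 libraries picked out above from these same values, so the calls give no further support. C3 in TAM II was then called (3.33, edgeR adjusted p = 0.00427) and Cfb was not (0.0575), beside 0.758% of 6203 genes. In tumour-like cells C2 (2.46, 0.0112), C4b (1.60, 0.0218), C1qb (1.97, 0.0257) and C1qc (2.05, 0.0287) were called, beside 0.599% of 14358 genes.

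**Figure D4:**
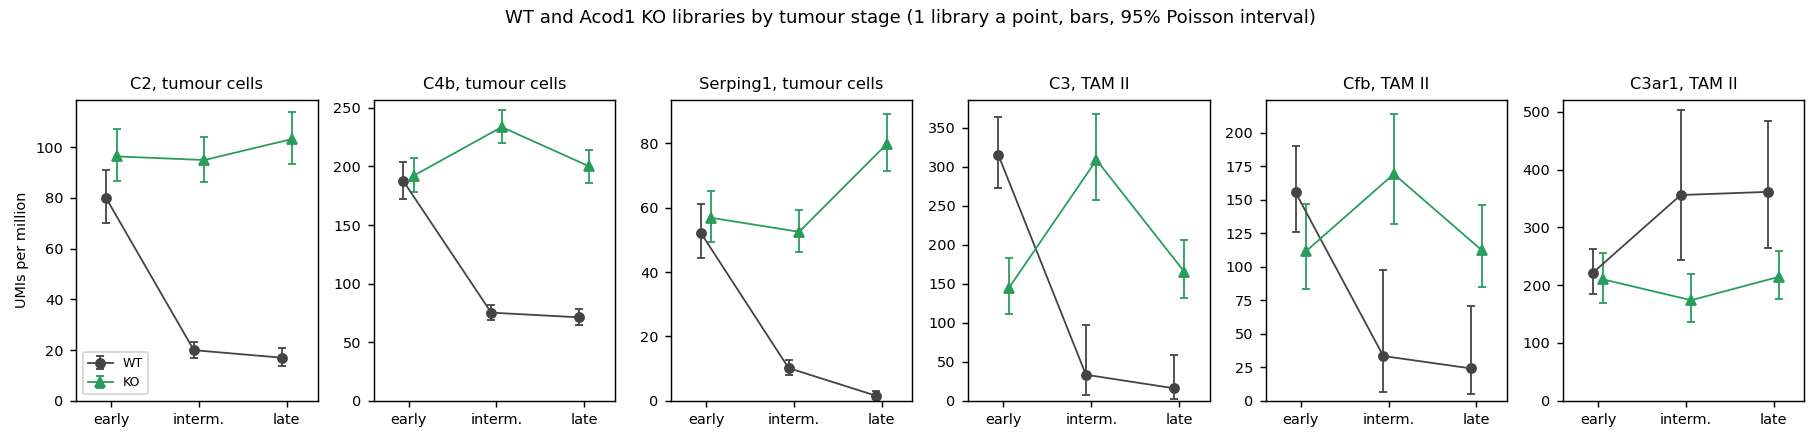
C2, C4b and Serping1 in tumour-like cells and C3, Cfb and C3ar1 in TAM II, in CPM at each stage, with 1 point per library and genotype and bars giving the 95% Poisson interval. The WT intermediate and WT late points sit lowest in every panel but that of C3ar1, where they sit highest.

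The difference between the genotypes at the later stages minus that at the early stage was also fitted as an interaction, a test chosen after these values were seen. It was 4.62 ± 0.79 for C3 (edgeR, adjusted p = 0.0905) and 2.96 ± 0.73 for Cfb (0.294) in TAM II, beside 0.0127% of all 7905 genes called. In tumour-like cells it was 2.11 ± 0.29 for C2 (0.274) and 1.49 ± 0.27 for C4b (0.448), beside 0.00651% of all 15350 genes. No member passed. With 1 mouse per genotype and stage, genotype, mouse, sex at 2 of the stages and library cannot be told apart.

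Late tumours were compared with early ones over both genotypes, with 2 libraries in each. In TAM I 6 members were tested and 0 called, beside 0.166% of all 1806 genes, and 1 member had an unadjusted p under 0.05. DESeq2 called 0 of them. C4b was lower late in both genotypes, by -1.49 ± 0.54 (edgeR, adjusted p = 0.674). In TAM II 7 were tested and 0 called by edgeR or DESeq2, 1 at an unadjusted p under 0.05, in a fit that called 0.0% of 6691 genes, 307 of them at an unadjusted p under 0.05.

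In tumour-like cells 8 members were tested against stage and 0 called by edgeR, 3 with an unadjusted p under 0.05, beside 0.0% of all 14337 genes. DESeq2 called the C1q chains higher late (1.86, adjusted p = 0.00878 for C1qa; 1.74, 0.00744 for C1qb; 1.85, 0.0102 for C1qc), beside 0.296% of all 8778 genes. These are the low C1q counts that moved with the myeloid list, which summed to 174 and 733 CPM late and 95.2 and 141 early. For C3 in TAM II the stage difference was -1.69 ± 0.76 and was not called, and the genotypes went opposite ways, from 316 to 16.1 CPM in WT and from 144 to 166 in KO. Single libraries moved it. It was -4.38 (edgeR, adjusted p = 4.33e-08) without KO early, beside 1.17% of 7353 genes called, and -3.87 (0.00608) without KO late, beside 0.54% of 7222. It was 0.14 without WT early and -0.82 without WT late, neither called.

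The genes whose levels were most like those of each member were named by Pearson's r of log2(CPM + 10) over the 72 sums of class and library, among 8619 genes. The sums share libraries and classes, so r is a description. C1qa was most like C1qb (0.957), Trem2 (0.951), a microglial lipid receptor, and C1qc (0.947), and C1qc was most like Trem2 (0.953) and Ly86 (0.95). C3ar1 was most like the IgG receptor gene Fcgr1 (0.963), C5ar1 (0.955) and Cd300c2 (0.953). Those members followed the myeloid classes closely.

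The other members had looser partners. Cfb was most like Ly6i (0.839), Il1rn (0.796) and Ifi211 (0.773), and C3 like Cyp4f18 (0.719), Ly6i (0.714) and Il1b (0.706). C4b was most like Lap3 (0.788), Serpina3n (0.647) and Irgm1 (0.645). C2 was most like Emilin1 (0.750), Mgp (0.711) and F830016B08Rik (0.696), and Serping1 like Tagln (0.778), Lox (0.766) and Ctgf (0.753), genes of contractile and matrix-making cells. The first-named triplets of C4b changed most with the pseudocount, 1 of its 3 remaining at a pseudocount of 1.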

How the data were processed

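Cells had been captured by Drop-seq and the authors deposited 1 table of raw UMI counts per library, genes by barcodes, made from STAR alignments; the submitters' processing notes name bcl2fastq 2.0 and the builds GRCm38 and mm10. Each table held 3000 barcodes, of which 5698 in all were kept. Drop-seq reads 3' ends, so levels do not depend on gene length, and genes sharing 3' sequence may be split. Cells were clustered on a tSNE (Rtsne 0.17) made without 34 complement genes, so that these could not define the classes. With them included, 99.86% of cells kept the same class. The first tSNE seed merged microglia-like and macrophage-like cells and became an alternative. Classes were named from marker lists. The 89 cells that the clustering left unassigned took the class of their nearest neighbours and entered the sums. They were left out, and doublets removed, only as alternatives. UMIs were summed per class and library (at least 5 cells) and tested with edgeR 4.0.16 (quasi-likelihood, TMM, filterByExpr) in R 4.3.3, with Benjamini-Hochberg adjustment over all genes and a threshold of 0.05. Covariates were genotype (tumour-bearing against naïve, late against early), the library (TAM II against TAM I) or stage (KO against WT). DESeq2 1.42.0 was an alternative. The code was tested on simulated data. Shares of cells were taken after thinning to 1500 UMIs, leaving out shallower cells. Intervals cover counting error only. The members, marker lists and other complement genes were chosen with earlier results of these data known. Named genes were all members, other complement genes past the threshold, and the 3 genes most like each member. Results for some other complement genes are not reported here.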

Additional observations from a re-analysis of the deposited data

Results flagged for a closer look

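Sets of 4 to 6 tumour-bearing library values of a member in 1 class were examined where their mean was at least 20 CPM. Over 41 such sets, 11 values stood far from the others by Dixon's test. Its chance rate of about 1 set in 20 holds for independent, normally spread values. These sets include low counts with zeros and the C1q chains, which moved together, so 11 of 41 cannot be set against that rate. Most rest on few molecules or on 1 library.

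In astrocyte-like cells of the KO intermediate library C1qa, C1qb and C1qc stood at 423, 370.1 and 159 CPM, against at most 55.2, 82.8 and 27.6 in the other tumour-bearing libraries. The 10-gene myeloid list summed to 1163 CPM in the same 9 cells, against 495 and 1372 in the naïve astrocyte-like sums. In tumour-like cells of KO late the chains stood at 112, 164 and 147 CPM, beside the highest myeloid sum of that class, 733 CPM. The part of myeloid RNA in these values was not tested.

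C4b in oligodendrocyte-like cells of WT intermediate was low, at 43.0 CPM, against 415 to 579.5 in the other tumour-bearing libraries. C3 in oligodendrocyte precursor-like cells of KO early was 157 CPM, from 2 UMIs, and Serping1 in those of WT late was 254 CPM. Cfb stood at 74.2 CPM in TAM I of KO intermediate, and at 144 CPM, from 5 UMIs, in mural- or fibroblast-like cells of KO early, where the other libraries were at 0.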

How the results depend on the processing

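The 7 member differences called gave 132 values under the alternatives. Of these, 125 kept their direction and their call. The other 7 lost the call and are all named in the report's values for C3 and C4b. C3 in TAM I against naïve and in TAM II against TAM I gave no value without WT early or without KO intermediate, being untested there. The 49 not called gave 851 values, of which 810 kept their side, 32 passed the threshold and 9 turned direction by over 1 SE; 70 others turned by less than 1 SE. Without a filter on low counts, C3ar1 in TAM II against TAM I turned from -0.20 to 0.087 (log2). Serping1 in TAM I, late against early, was below the filter and untested, with a log2 ratio of mean CPM + 1 of 0.61 and -0.070 in the fit without a filter. Leaving out single libraries gave ranges across 0 for C3ar1 by genotype in tumour-like cells (-0.80 to 1.93) and, by stage, for C3ar1 (-1.51 to 0.71) and C3 (-1.85 to 2.54) in TAM I, C4b (-1.82 to 0.50) and C3 (-4.38 to 0.14) in TAM II, and C4b (-1.47 to 0.017) and C3 (-2.96 to 1.82) in tumour-like cells. The cause was not tested.

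Counts of genes called against naïve were 9 in astrocyte-like, 74 in endothelial-like, 539 in microglia-like, 0 in mural- or fibroblast-like, 2 in neuron-like and 61 in oligodendrocyte-like cells, and 749 for TAM II against TAM I. By genotype they were 0 in TAM I, 4 in TAM II and 0 in tumour-like cells, and by stage 3, 0 and 0. DESeq2 gave 14 in astrocyte-like, 49 in endothelial-like and 36 in mural- or fibroblast-like cells, by genotype 1 in TAM I, 9 in TAM II and 71 in tumour-like cells, and by stage 26 in tumour-like cells. With DESeq2's size factors in edgeR the neuron-like count was 4. Without the filter the counts were 64 in astrocyte-like, 167 in endothelial-like, 78 in mural- or fibroblast-like, 10 in neuron-like and 218 in oligodendrocyte-like cells, 1412 for TAM II against TAM I, by genotype 4, 62 and 2, and by stage 13 in TAM I and 32 in TAM II. Sums of at least 10 cells gave 17 in astrocyte-like cells and 20 by stage in TAM I. Without covariate or block there were 0 in neuron-like cells, 0 by genotype in TAM II and 0 by stage in TAM I. By genotype, tumour-like cells had 2 with the complement genes in the clustering, 2 with another tSNE seed, 2 with Leiden clustering, 2 at 500 genes per cell and 1 with doublets removed. By stage, another seed gave 0 in TAM I and 1 in TAM II, Leiden clustering 1 and 1 (neuron-like 0), and removed doublets 0 in TAM I (astrocyte-like 5). Leaving unassigned cells out gave 0 in neuron-like cells, 1 by genotype in TAM II and 0 by stage in TAM I. At 500 genes per cell there were 32 in astrocyte-like and 1 in neuron-like cells, and the whole endothelial cluster gave 241. Of alternatives chosen after seeing the data, leaving dendritic-like cells out of TAM II gave 7 by genotype and 3 by stage, and leaving out WT intermediate and WT late together gave 20 in astrocyte-like, 1 in neuron-like and 95 in oligodendrocyte-like cells and 1154 for TAM II against TAM I.

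Leaving out single libraries gave 7 to 23 in astrocyte-like, 40 to 98 in endothelial-like, 69 to 616 in microglia-like (69 without KO naïve and 110 without WT naïve), 0 to 8 in mural- or fibroblast-like, 0 to 21 in neuron-like and 3 to 80 in oligodendrocyte-like cells (3 without KO naïve, 27 without KO late). By genotype the ranges were 0 to 41 in TAM I, 0 to 58 in TAM II and 0 to 86 in tumour-like cells, and by stage 3 to 48, 0 to 86 and 0 to 65. Limits are 2 naïve libraries, 1 mouse per genotype and stage, classes of few cells, and members below the count filter. The labels number no replicates, so no pairing beyond the library and stage blocks was used.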

Other observations

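TAM II cells with and without a C1q UMI were compared for the other members, as a description. Of 477 cells, 383 (80.3%) had one, and by library the share ran from 57.1% in WT late to 85.7% in WT early. Pooled over libraries, C3 stood at 234 CPM in cells with and 91.7 in cells without C1q, Cfb at 137 and 56.4, C3ar1 at 238 and 116, and C4b at 49.7 and 45.8. C3ar1 was higher in the cells with C1q in 6 of 6 libraries and C3, Cfb and C4b in 5 of 6. In WT early C3 was nearly equal, at 315.9 CPM with and 315.2 without C1q. C4b went the other way there, at 39.3 CPM with and 202.6 without, from 22 and 9 UMIs. Some of these directions rest on few UMIs. In WT intermediate, with 5 cells without C1q, C3 and Cfb each had 0 UMIs without and 3 with, and C4b 0 and 1. In WT late C3 had 1 UMI in each part. The macrophage-like class also held 26 dendritic-like cells, which were not set apart here. Depth differed too, with median UMIs of 3410 with and 2505.5 without.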
